A study of Homo sapiens with 4 samples.

Results

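Homologous recombination rejoins broken DNA by copying an intact sister chromatid, and the Fanconi anemia pathway removes crosslinks that tie the strands of DNA together. Kinases sense the damage, nucleases trim the ends, mediator proteins prepare the ends for strand exchange, and a Fanconi core complex attaches ubiquitin to FANCD2 and FANCI at stalled forks. Most of this work is done in S and G2 phase, when a sister chromatid exists, and many of the genes are transcribed most strongly in dividing cells. The 35 genes described here were taken by symbol from the deposited expression table, and all 35 were found among its 40205 rows. They fall into 4 classes: 6 sensors and checkpoint kinases, 12 recombination mediators, 11 Fanconi genes, and 6 nucleases and end-processing factors.

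The table covers 4 poly(A) RNA libraries of U87MG and U251, both human glioblastoma cell lines. In each line the control cells, labelled WT, carried a negative-control short hairpin (sh-NC), and the knockdown cells, labelled SRSF1 KD, a hairpin against the splicing factor SRSF1. Both hairpins were delivered by lentivirus and both arms were selected with puromycin, so the controls are infected, selected pools and not parental cells. Each line and arm is represented by a single library, which leaves no replicate inside a line and 2 libraries per arm across the lines. Separate infections are not described. The p-values here therefore set an effect against how far the 2 lines disagree, a spread pooled in part over all genes. Each line's own response, culture and technical variation enter that spread and cannot be told apart.

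Values are RPKM, in which reads are divided by gene model length and library size. RPKM adjusts for length and depth only, and calls changed when libraries were scaled further, as given below. Library totals, worked out from the RPKM steps, ran from 25099799 to 27953878 reads, and single members had 76 to 11323 reads per library. SRSF1 was at 88.3 RPKM in control and 14.6 in knockdown U87MG cells, and 109 against 15.8 in U251 cells. Among 7 glial and glioma markers, VIM and CD44 were high throughout. The list summed to 1862 and 1614 RPKM in the controls and to 1285 and 1379 in the knockdowns, most of it VIM. NES was at 1.79 RPKM in control U87MG and 61.1 in control U251 cells, and OLIG2 at 2.46 RPKM or less in every library. GFAP and S100B, which define astrocytes, were at 1.47 RPKM or less, with S100B at 0 in U87MG, and SOX2 was at 0.12 RPKM in control U87MG and 47.9 in control U251 cells. Of 8 markers of blood, endothelial and neuronal cells CD3E and RBFOX3 were among those at 0 everywhere, and the list summed to 4.64 and 7.45 RPKM in the controls and 3.51 and 6.29 in the knockdowns, most of it SYT1.

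Promoter sequences are described first, as background to the expression values. E2F factors, which switch on genes at the start of S phase, are known to act on replication and repair genes. Their binding and activity were not measured here, and their part in the expression values was not tested. RefSeq windows (250 bases before to 50 after 1 annotated start per gene, GRCh38.p14) were matched for 32 of the 35 genes, all but FANCI, NBN and RAD54B. They were searched on both strands for the E2F words TTTCCCGC, TTTCGCGC, TTTGCCGC and TTTGGCGC. A word was found in 6 of 32 members (18.8%), compared with 5.49% of 9242 windows of genes tested. Shown here are the words, in capitals, of FANCA, FANCD2 and GEN1, which fell in the comparison across lines given further on, and of EXO1 and XRCC2, which did not pass that test.
FANCA: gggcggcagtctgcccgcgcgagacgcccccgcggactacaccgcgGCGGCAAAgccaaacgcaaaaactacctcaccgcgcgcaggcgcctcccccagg
FANCD2: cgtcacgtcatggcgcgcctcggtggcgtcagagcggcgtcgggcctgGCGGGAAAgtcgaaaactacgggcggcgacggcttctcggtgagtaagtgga
GEN1: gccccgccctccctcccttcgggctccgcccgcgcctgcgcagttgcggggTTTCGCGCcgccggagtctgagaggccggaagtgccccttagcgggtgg
EXO1: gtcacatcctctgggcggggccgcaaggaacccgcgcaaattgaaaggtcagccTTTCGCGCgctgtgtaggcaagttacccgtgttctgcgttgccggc
XRCC2: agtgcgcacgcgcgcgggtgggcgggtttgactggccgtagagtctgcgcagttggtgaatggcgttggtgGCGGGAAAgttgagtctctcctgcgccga

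Each stretch reads 5′ to 3′ on the strand of its gene. They lie at chr16:89816766-89816865 (FANCA, reverse strand), chr3:10026387-10026486 (FANCD2, forward), chr2:17753819-17753918 (GEN1, forward), chr1:241848154-241848253 (EXO1, forward) and chr7:152676092-152676191 (XRCC2, reverse). GEN1 and EXO1 hold the same word, TTTCGCGC, which begins 2 and 5 bases into the transcript. The FANCD2 word begins 2 bases before the start, the XRCC2 word 22 bases into the transcript and the FANCA word 172 bases upstream. FANCC, the remaining member with a match, held 2 words. Of the 9 called members with a window 3 held a word, and of the 23 others 3 did. By class a word was found in 3 of 10 Fanconi genes, 2 of 6 nucleases and end-processing factors, 1 of 11 mediators and 0 of 5 sensors and kinases. The CHR word TTTGAA, known from genes of G2 phase and mitosis, was in 4 of 32 members (12.5%) and 9.87% of windows of genes tested, and CCAAT was in 14 of 32 (43.8%) and 37.8%. A match describes letters in these windows and is not a measured binding site.

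Of the 35 recombination and Fanconi genes 30 had lower values in the knockdown library of both lines, and 10 passed the test across lines, with the lowest estimates in FANCG, BRCA1, FANCI, GEN1 and FANCB. Across lines, limma was fitted to log2 (RPKM + 1) of all 16098 genes that reached 1 RPKM in any library, blocking on cell line, with Benjamini-Hochberg adjustment over all of them. A gene is said to have fallen or risen where its adjusted p was under 0.05. All 35 members passed the filter on low values, 10 fell and 0 rose, against 2.61% and 1.16% of all genes tested. The 10 were BRCA1, BRCA2 and BRIP1 among the mediators, FANCA, FANCB, FANCD2, FANCG and FANCI among the Fanconi genes, and BLM and GEN1 among the nucleases and end-processing factors. No sensor or checkpoint kinase gene passed. The median limma estimate was -0.63 over the members and -0.03 over all genes, and 24 members were lower at an unadjusted p under 0.05, against 12.8% of all genes. The calls depend on the settings: 11 members were called after quantile normalization, 4 without the intensity trend, and 0 after trimmed-mean rescaling, with no filter on low values or with no block for cell line. After trimmed-mean rescaling the limma adjusted p-values of the 10 were 0.0653 to 0.0966, and all 10 estimates were negative in each of these fits.

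**Figure D1:**
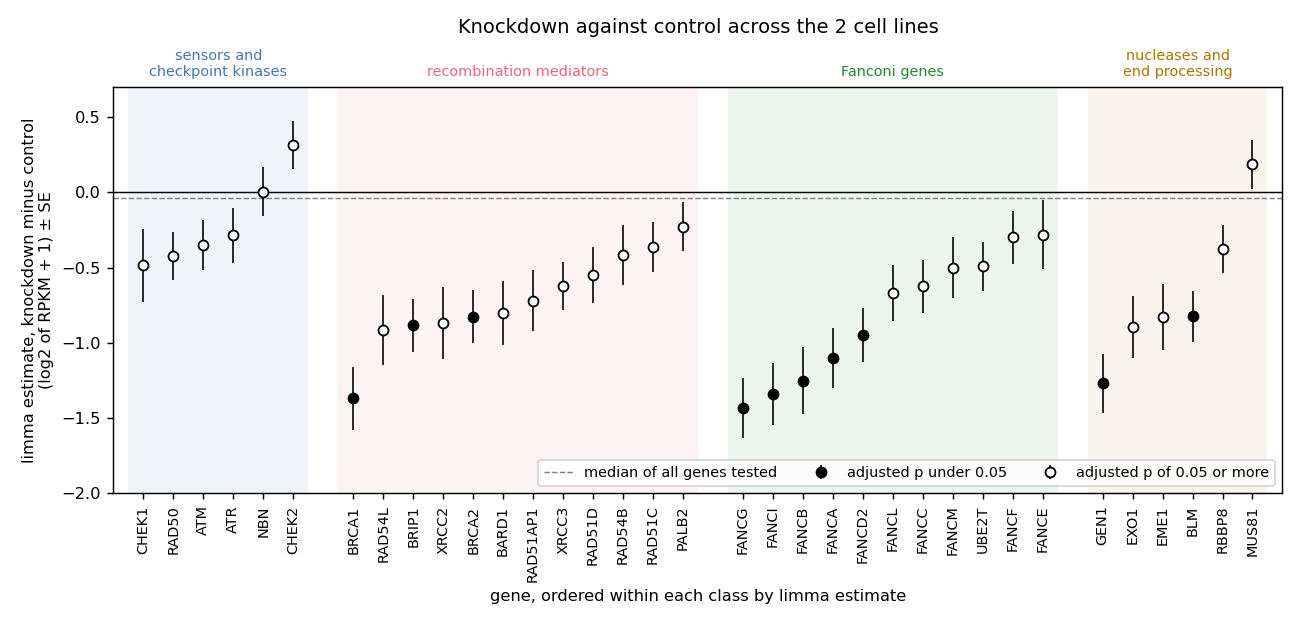
Limma estimate of each gene, knockdown minus control in log2 of RPKM + 1, with its standard error (2 libraries per arm), arranged by class. Filled points are the 10 genes with an adjusted p under 0.05, from FANCG at -1.44 to BLM at -0.82, and the dashed line is the median of all genes tested (-0.03).

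Within a line, a ratio is the difference of log2 (RPKM + 1), knockdown minus control, a scale that understates the change of weakly expressed genes. In U87MG 32 of 35 members had a ratio below 0, against 55.5% of all genes, and in U251 31 did, against 50.5%. Both ratios were below 0 for 30 members, against 36.5% of all genes, or for 29 members after quantile normalization, where ATR in U251 changed sign. The median ratio of the members was -0.93 in U87MG and -0.44 in U251, where all genes had -0.053 and -0.0037. On this scale 14 members were 2-fold lower in U87MG, against 3.58% of all genes. In U251 1 member was, FANCG, against 1.71%. BRCA1 and FANCI, at -0.999 and -0.998, lay just short of 2-fold in U251 with the 1 added. Without the added 1, their U251 knockdown levels were 0.483 and 0.490 of control, and those of GEN1 and FANCB 0.455 and 0.492. With a pseudocount of 0.1 the counts of 2-fold lower members were 21 in U87MG and 5 in U251. No member was 2-fold higher in either line, against 2.33% of all genes in U87MG and 1.17% in U251.

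**Figure D2:**
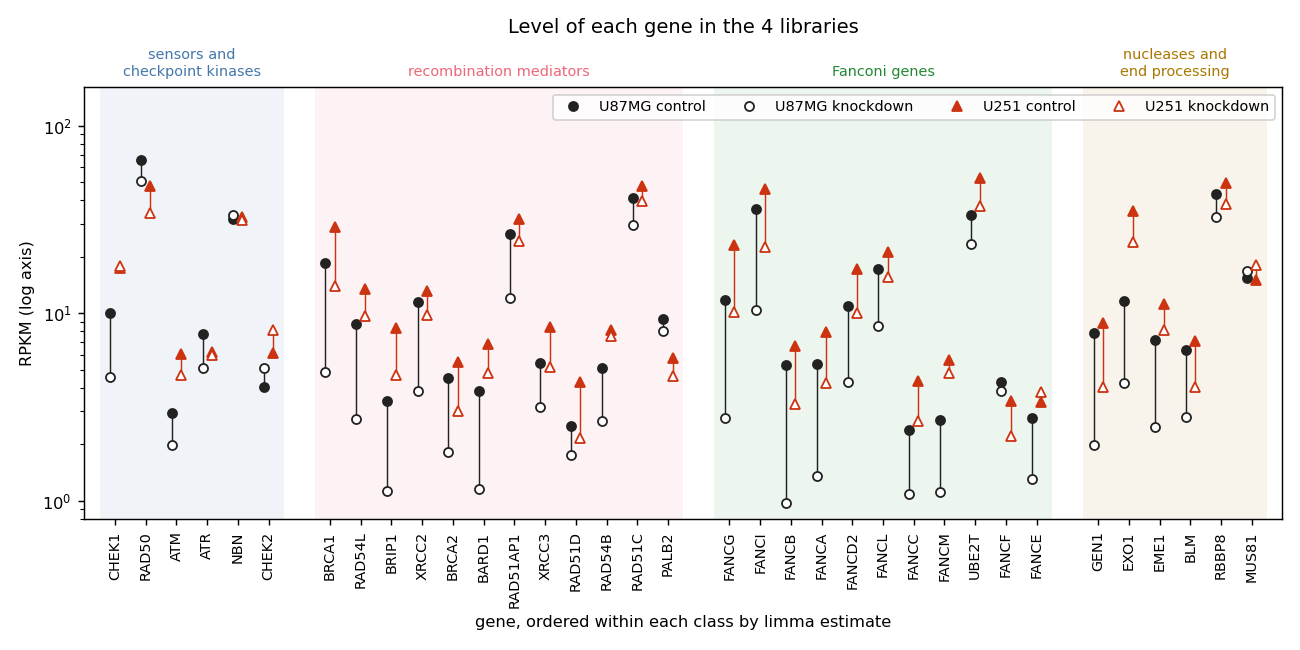
RPKM of each gene in the 4 libraries on a log axis, with control (filled) and knockdown (open) joined within U87MG (black circles) and U251 (red triangles). Longer lines mark larger differences: FANCB goes from 5.26 to 0.973 RPKM in U87MG, while the 4 points of NBN lie between 31.5 and 33.3 RPKM.

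Genes of proliferation moved with the members. Of 14 such genes (MKI67, TOP2A, PCNA, E2F1, CDK1, CCNA2, CCNB1, CCNE2 and MCM2 to MCM7) 7 fell and 0 rose by limma. Among all genes tested 2.61% fell and 1.16% rose. Median ratios of the 14 were -1.36 in U87MG and -0.61 in U251. Their summed level was 956 RPKM in control and 357 in knockdown U87MG cells, and 1210 against 785 in U251 cells. CCNE2 (-1.95 ± 0.17), MKI67 (-1.74 ± 0.21), TOP2A (-1.34 ± 0.21) and CCNA2 (-1.22 ± 0.18) had the lowest limma estimates. Their part in the result was not tested. In bulk RNA, fewer cells of a kind, such as cells in S phase, and less of a transcript per cell cannot be told apart.

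Of the 4 classes, sensors and checkpoint kinases had the median limma estimate nearest 0, -0.32, and the difference between classes was not tested. Their median ratio was -0.38 in U87MG and -0.05 in U251. In each line 4 of 6 were lower, against 55.5% of all genes in U87MG and 50.5% in U251. Both ratios were below 0 for 3, against 36.5%, and with 6 genes these counts lie near the shares of all genes. NBN, which with RAD50 and MRE11 forms the complex that first binds broken ends, measured 31.9 RPKM in control and 33.3 in knockdown U87MG cells, and 32.6 against 31.5 in U251 cells. The 4 libraries were nearly level, the arms overlap, and the limma estimate was 0.01 ± 0.16 (SE, 2 libraries per arm, as for all estimates here). RAD50, the ATPase of the same complex, measured 65.3 RPKM in control and 50.5 in knockdown U87MG cells, and 47.8 against 34.1 in U251 cells (-0.42 ± 0.16, limma adjusted p = 0.190). It was lower in both knockdown libraries, and the arms overlap since the U87MG knockdown stood above the U251 control. A share of 0.91 of the 31-base words of RAD50 also occurs in the overlapping annotated gene AC116366.3, so its reads may not have been assigned to it alone.

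CHEK1, the kinase that restrains the cell cycle when forks stall, was lower in the U87MG knockdown and level between the U251 libraries. It measured 10.0 RPKM in control and 4.54 in knockdown U87MG cells, and 17.5 against 17.7 in U251 cells. In recovered reads the knockdown level was 0.454 of the control level for U87MG (95% Clopper-Pearson bounds of 0.407 and 0.505, which cover counting error only) and 1.01 of it for U251 (0.952 and 1.08). Across lines the estimate was -0.49 ± 0.24 (limma adjusted p = 0.301). ATR, the kinase that activates CHEK1, stood at -0.53 in U87MG and at -0.04 in U251, and ATM, the kinase activated at breaks, -0.39 and -0.31. CHEK2, the kinase downstream of ATM, had the highest estimate of all members, 0.32 ± 0.16 (limma adjusted p = 0.312), with ratios of 0.27 and 0.36. CHEK2 pseudogenes and other genes hold 0.17 of its 31-base words.

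The recombination mediators were lower throughout, with all 12 ratios below 0 in each line. Of all genes 55.5% were below 0 in U87MG and 50.5% in U251. The class had a median of -1.01 in U87MG, where 6 were 2-fold lower (3.58% of all genes). Its median was -0.44 in U251, where none was on the log2 (RPKM + 1) scale (1.71% of all genes). BRCA1 stood at -0.999 there, and at 0.483 of the control level without the added 1. BRCA1, a ubiquitin ligase subunit that promotes end resection, measured 18.5 RPKM in control and 4.83 in knockdown U87MG cells, and 28.96 against 14.0 in U251 cells. Both knockdown libraries lie below both controls, and the estimate was -1.37 ± 0.21 (limma adjusted p = 0.0215). In recovered reads the knockdown level was 0.261 of the control level for U87MG (0.242 and 0.281) and 0.483 of it for U251 (0.461 and 0.506). BARD1, its RING-domain partner, had ratios of -1.17 and -0.43 and did not pass (-0.80 ± 0.21, limma adjusted p = 0.0868).

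BRCA2, a mediator that acts on resected single-stranded DNA, measured 4.53 RPKM in control and 1.82 in knockdown U87MG cells, and 5.46 against 3.02 in U251 cells (-0.83 ± 0.18, limma adjusted p = 0.0480). The arms do not overlap, and the adjusted p sits just under the threshold. BRIP1, a helicase that binds BRCA1, measured 3.41 RPKM in control and 1.13 in knockdown U87MG cells, and 8.35 against 4.69 in U251 cells (-0.89 ± 0.18, limma adjusted p = 0.0415). Here the arms overlap, since the U251 knockdown stands above the U87MG control. PALB2, the bridge between BRCA1 and BRCA2, was nearest to 0 of the mediators. It measured 9.28 RPKM in control and 8.03 in knockdown U87MG cells, and 5.78 against 4.63 in U251 cells (-0.23 ± 0.16, limma adjusted p = 0.459), with overlapping arms.

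RAD54L, a motor protein that acts in strand invasion, measured 8.76 RPKM in control and 2.73 in knockdown U87MG cells, and 13.4 against 9.61 in U251 cells. Its ratios of -1.39 and -0.44 lie far apart, the arms overlap, and the estimate of -0.92 ± 0.23 did not pass (limma adjusted p = 0.0768). RAD51C, RAD51D, XRCC3 and XRCC2, which act together in complexes that promote recombination, had limma estimates of -0.36, -0.55, -0.62 and -0.87 in that order, and none passed. RAD51D had the more negative ratio in U251, -0.74 against -0.35 in U87MG. RAD51AP1, which promotes strand invasion, had ratios of -1.06 and -0.39, and RAD54B, a relative of RAD54L, -0.74 and -0.10. The overlapping genes FSBP and KLC1 hold 0.79 of the 31-base words of RAD54B and 0.41 of those of XRCC3, so these values are uncertain. LRRC41, on the opposite strand, holds 0.22 of the words of RAD54L.

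Of the 10 calls 5 were among the 11 Fanconi genes, against 2.61% of all genes called lower. The class had a median ratio of -0.93 in U87MG and -0.55 in U251, where all genes had -0.053 and -0.0037. FANCG, a scaffold of the core complex, had the lowest estimate of all members, -1.44 ± 0.20 (limma adjusted p = 0.0187). It measured 11.8 RPKM in control and 2.77 in knockdown U87MG cells, and 23.2 against 10.2 in U251 cells. In recovered reads the knockdown level was 0.235 of the control level for U87MG and 0.439 of it for U251 (0.402 and 0.480). FANCA, the core subunit that binds FANCG, measured 5.35 RPKM in control and 1.36 in knockdown U87MG cells, and 7.95 against 4.22 in U251 cells (-1.10 ± 0.20, limma adjusted p = 0.0320). FANCB, which forms the catalytic module with FANCL, measured 5.26 RPKM in control and 0.973 in knockdown U87MG cells, and 6.70 against 3.29 in U251 cells (-1.25 ± 0.22, limma adjusted p = 0.0296). For FANCG, FANCA and FANCB both knockdown libraries lie below both controls. The gene ZNF276, on the opposite strand, holds 0.24 of the words of FANCA, and the 76 reads on FANCB in the U87MG knockdown were the fewest of any member.

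FANCD2 and FANCI, the pair that the core complex modifies, were lower as well. FANCI measured 35.8 RPKM in control and 10.4 in knockdown U87MG cells, and 45.8 against 22.4 in U251 cells (-1.34 ± 0.20, limma adjusted p = 0.0214). FANCD2 measured 10.9 RPKM in control and 4.32 in knockdown U87MG cells, and 17.2 against 9.99 in U251 cells (-0.95 ± 0.18, limma adjusted p = 0.0354). The arms do not overlap for either gene. FANCD2P2, a pseudogene, and other genes hold 0.17 of the words of FANCD2.

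The other Fanconi genes had estimates closer to 0 and did not pass. FANCL, the ubiquitin ligase of the core complex, stood at -0.93 in U87MG and at -0.41 in U251, and UBE2T, the ubiquitin-conjugating enzyme that works with it, -0.49 in each. FANCC, a core subunit, had -0.70 and -0.55, and FANCM, the translocase that anchors the core complex on DNA, -0.80 and -0.20. FANCF, an adaptor of the core complex, had -0.14 in U87MG and the more negative value, -0.46, in U251. FANCE, which links the core complex to FANCD2, measured 2.74 RPKM in control and 1.31 in knockdown U87MG cells, and 3.36 against 3.79 in U251 cells (-0.28 ± 0.23, limma adjusted p = 0.525). The arms overlap, and in recovered reads the U251 knockdown was at 1.13 of the control level, with bounds of 0.941 and 1.35. VRK2, on the opposite strand, holds 0.26 of the 31-base words of FANCL.

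Among the 6 nucleases and end-processing factors GEN1 and BLM fell, against 2.61% of all genes. The class medians were -1.10 in U87MG and -0.47 in U251, where all genes had -0.053 and -0.0037. GEN1, a resolvase that cuts Holliday junctions, measured 7.88 RPKM in control and 1.99 in knockdown U87MG cells, and 8.88 against 4.04 in U251 cells (-1.27 ± 0.19, limma adjusted p = 0.0215). BLM, a helicase that takes such junctions apart, measured 6.39 RPKM in control and 2.80 in knockdown U87MG cells, and 7.14 against 4.05 in U251 cells (-0.82 ± 0.17, limma adjusted p = 0.0450). Neither gene had overlapping arms. EXO1, which resects broken ends over long distances, measured 11.6 RPKM in control and 4.26 in knockdown U87MG cells, and 35.1 against 23.9 in U251 cells (-0.90 ± 0.21, limma adjusted p = 0.0601). It was lower in both knockdown libraries, and the arms overlap since both U251 libraries stand above both of U87MG.

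MUS81, a nuclease for branched DNA, went the other way from its class by value. It measured 15.3 RPKM in control and 16.8 in knockdown U87MG cells, and 15.0 against 18.1 in U251 cells (0.19 ± 0.16, limma adjusted p = 0.556). Of the 35 members it alone had both knockdown libraries above both controls. EME1, the subunit MUS81 needs for activity, had ratios of -1.24 and -0.42 (-0.83 ± 0.22, limma adjusted p = 0.0852). RBBP8, encoding the resection factor CtIP, had -0.40 and -0.35. LRRC59, on the opposite strand, holds 0.19 of the 31-base words of EME1.

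Both knockdown libraries lay below both control libraries for 17 of 35 members, against 14.4% of all genes tested, and above them for 1, MUS81, against 9.37%. In recovered reads the counting interval of the knockdown level relative to control lay below 1 for 31 members in U87MG, against 37.4% of all genes with recovered reads, and for 28 in U251, against 30.3%. It lay above 1 for CHEK2 and MUS81 in each line, against 26.1% of all genes in U87MG and 29.0% in U251. These intervals leave out the spread between cultures.

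The 10 genes that fell are spread over 8 chromosomes. In GRCh38, with GENCODE 29 gene bounds, BRCA1 lies at chr17:43044295-43170245 and BRIP1 at chr17:61681266-61863521, both on the reverse strand. FANCI lies at chr15:89243949-89317261 and BLM at chr15:90717327-90816165, both on the forward strand. BRCA2 (chr13:32315474-32400266), FANCD2 (chr3:10026414-10101930) and GEN1 (chr2:17753858-17788941) are on the forward strand, and FANCA (chr16:89737549-89816657), FANCB (chrX:14835961-14873069) and FANCG (chr9:35073835-35080016) on the reverse strand.

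**Figure D3:**
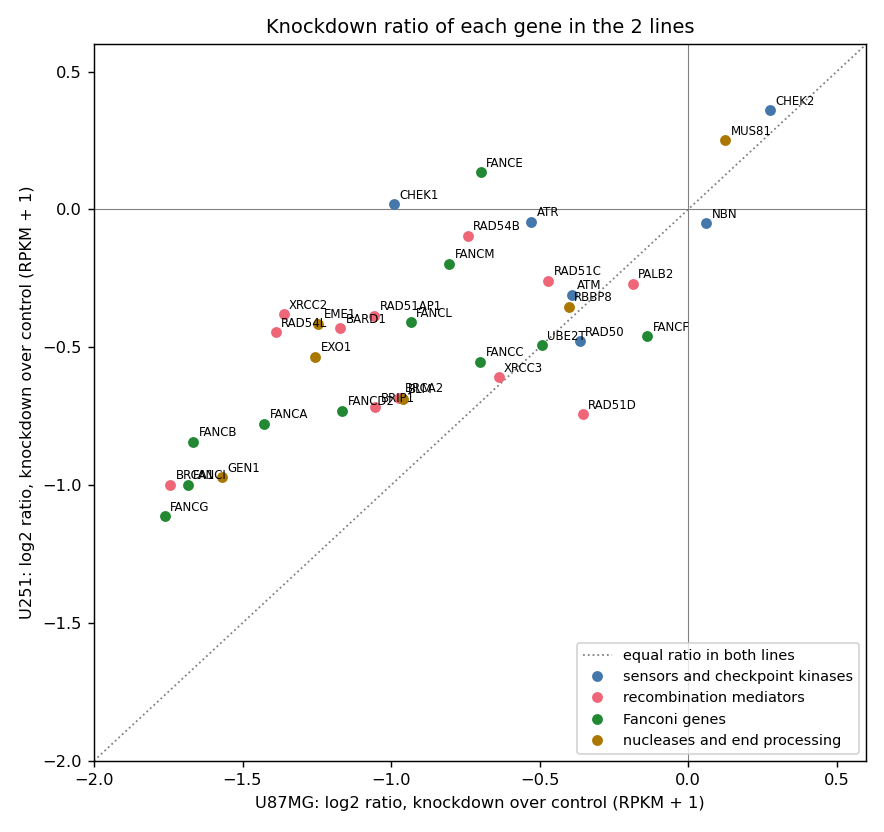
Log2 ratio of knockdown over control for each gene in U87MG (horizontal axis) and U251 (vertical axis), coloured by class, with equal ratios on the dotted line. Of the 35 genes 29 lie above the dotted line, with the lower ratio in U87MG (CHEK2 and MUS81 among them are above 0 in both lines), and RAD51D and FANCF lie furthest below it.

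The ratio was lower in U87MG than in U251 for 29 of 35 members, against 57.1% of all genes. CHEK2 and MUS81 are among the 29 with ratios above 0 in both lines. The median difference of the ratios, U87MG minus U251, was -0.48 for the members and -0.07 for all genes, and 13 of the 14 proliferation genes also had the lower ratio in U87MG. CHEK1 (-0.99 and 0.02), XRCC2 (-1.36 and -0.38) and RAD54L (-1.39 and -0.44) differed most, and UBE2T had nearly the same ratio in each (-0.49). The difference between lines was not tested, because a fit with it leaves no residual degree of freedom. Across the 35 members the ratios of the lines correlated with Pearson r = 0.72 and Spearman rho = 0.63, against 0.48 and 0.49 across all 16098 genes, a description across genes, which are not independent.

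The lines also differed in the level of these genes over both arms. In the same fit 21 members were lower in U87MG than in U251 and 2 were higher, against 27.0% and 21.6% of all genes. This comparison averages both arms, and 29 of 35 members had the lower knockdown ratio in U87MG, which enters it. It is therefore not a comparison of the controls alone. The median estimate for U87MG minus U251 was -0.64 over the members and -0.07 over all genes. EXO1 was lowest in this comparison (-1.89 ± 0.21, limma adjusted p = 0.00028), followed by CHEK1 (-1.25 ± 0.24), BRIP1 (-1.25 ± 0.18) and FANCG (-1.24 ± 0.20). RAD50 and PALB2 were higher in U87MG, by 0.50 ± 0.16 and 0.64 ± 0.16. These 6 genes were picked for this comparison after their values were seen.

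Further genes of the pathway were read from a list. Of 48 other recombination and Fanconi genes 41 had a ratio below 0 in U87MG (median -0.48), against 55.5% of all genes tested. In U251 37 did (median -0.23), against 50.5%. Across lines 2 fell and 0 rose, against 2.61% and 1.16% of all genes, counts near those shares. At an unadjusted limma p under 0.05, 23 of the 48 were lower, against 12.8% of all genes, and 0 were higher. On the log2 (RPKM + 1) scale 7 were 2-fold lower in U87MG, against 3.58% of all genes. In U251 1 was, against 1.71%. CLSPN, the mediator that couples ATR to CHEK1, measured 18.0 RPKM in control and 3.93 in knockdown U87MG cells, and 22.5 against 10.3 in U251 cells (-1.50 ± 0.23, limma adjusted p = 0.0214). USP1, which removes ubiquitin from FANCD2, measured 52.2 RPKM in control and 24.8 in knockdown U87MG cells, and 84.2 against 52.4 in U251 cells (-0.86 ± 0.17, limma adjusted p = 0.0423). MND1, an accessory factor of strand exchange, had an estimate of -0.88 and RPA2, a subunit of the protein that coats single-stranded DNA, -0.78, with limma adjusted p-values of 0.0936 and 0.0545.

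For other repair routes the medians of the limma estimates were -0.21 over 11 genes of non-homologous end joining, -0.28 over 7 of mismatch repair, -0.38 over 18 of base excision repair and -0.06 over 17 of nucleotide excision repair. No gene of end joining or mismatch repair was called by limma, against 2.61% of all genes called lower and 1.16% called higher. In these lists 3 and 1 genes were lower at an unadjusted limma p under 0.05, against 12.8% of all genes. PRKDC, the kinase of end joining, had the lowest estimate of these (-0.66 ± 0.18). In base excision repair PARP1, the strand-break sensor (-1.42 ± 0.18), and NEIL3, a glycosylase (-1.25 ± 0.19), fell. In nucleotide excision repair DDB2, which recognises ultraviolet lesions (-1.63 ± 0.18), and UVSSA, which acts at stalled RNA polymerase (-0.99 ± 0.18), fell. Base and nucleotide excision repair each had 2 genes that fell and 0 that rose, against 2.61% and 1.16% of all genes tested. At an unadjusted limma p under 0.05, 8 of 18 base excision and 3 of 17 nucleotide excision genes were lower, against 12.8% of all genes. In each of these 2 lists 1 gene was higher, against 1334 of all 16098 genes. Differences between these lists and the members were not tested.

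**Figure D4:**
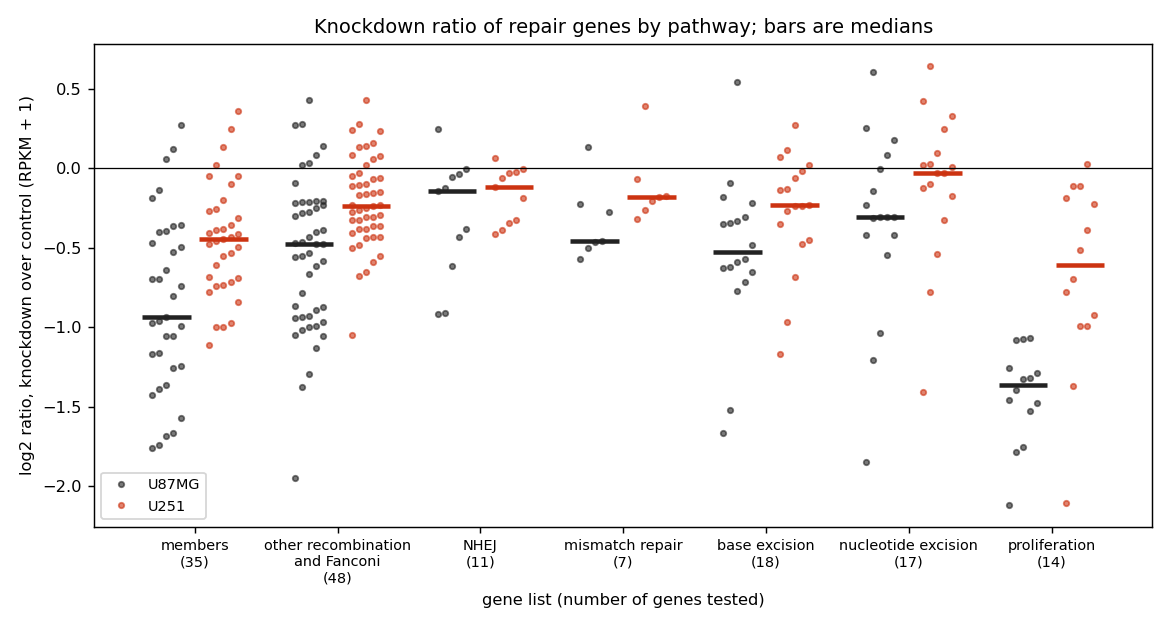
Log2 ratio of knockdown over control for each gene of 7 lists, in U87MG (black) and U251 (red), with bars at the medians and the number of genes tested under each list. The medians of the members (-0.93 and -0.44) lie between those of the other repair lists and those of the proliferation genes (-1.36 and -0.61).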

How the data were processed

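Poly(A) RNA of 4 libraries was sequenced in read pairs. The submitters' processing notes name Bowtie 0.12.2 and hg19. How reads were counted, on which annotation and with which strand setting is not given in the sources used here. The deposited values are RPKM per gene, computed by the authors. Columns were matched to samples by title. RPKM steps of small RNA genes of known length gave library totals, and with these 27928 of 27973 genes above 0 held whole reads within 0.01 reads in each library, trying gene models of at most 40000 bases. FANCL gave 866 bases, so its true reads may be a multiple of those found. Limma 3.58.1 in R 4.3.3 was fitted to log2 (RPKM + 1), two-sided, over 16098 genes with an intensity trend, leaving 1 residual degree of freedom per gene. The fit was also run on simulated data with the same change in both lines, so that run does not cover lines that respond differently. Members, classes and lists were chosen with earlier results of these data known.

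Values in every library are given for members called, for the 2 per class with the largest and the 1 with the smallest absolute estimate, and for members with opposite directions in the lines, and up to 4 genes of each other list were eligible by absolute estimate. Other members are given by ratios or estimates. Shared 31-base words and gene bounds come from GENCODE 29 on GRCh38 and promoters from RefSeq on GRCh38.p14, and no position was converted from hg19. Alternatives were another pseudocount, other filters, trimmed-mean and quantile scaling, no block, no trend, each line alone and, added after the data were seen, voom weights on recovered reads. Other tools were Python 3.11.15, numpy 2.4.6, pandas 2.3.3 and scipy 1.17.1, with matplotlib 3.10.9 for figures. Items withheld from this text are not reported here.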

Additional observations from a re-analysis of the deposited data

Results flagged for a closer look

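CHEK1, FANCE and NBN stand here because their knockdown libraries were above control in one line and below it in the other. CHEK1 had a log2 ratio of -0.99 in U87MG and 0.020 in U251. FANCE had -0.70 and 0.14, and NBN 0.061 and -0.050. A single library per line and arm leaves the difference between the lines not tested. In recovered reads the counting interval of the knockdown level relative to control included 1 for NBN in both lines (0.999 to 1.09 for U87MG, 0.923 to 1.01 for U251). For CHEK1 and FANCE it included 1 in U251 and lay below 1 in U87MG.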

How the results depend on the processing

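All 10 called members kept a negative limma estimate under each alternative fit that tested them. The count of members called lower, 10, was 10 with a pseudocount of 0.1 and 11 after quantile normalization. It was 18 of 34 when 1 RPKM was asked of all libraries, which leaves out FANCB, and 18 with voom weights. It was 4 without the intensity trend, and 0 after trimmed-mean rescaling, with no filter on low values and with no replicate block for the cell line. In these last 3 settings 21, 21 and 2 members were lower at an unadjusted p under 0.05 by limma. Over all genes, calls lower and higher went from 420 and 186 to 10 and 12 after trimmed-mean rescaling, and the cause was not tested. The median ratio of the Fanconi genes in U87MG moved from -0.93 to -1.20 with a pseudocount of 0.1. The median estimate of the members, -0.63, was -0.93 in U87MG alone and -0.44 in U251 alone. A blocked fit without a single library has no residual degree of freedom and was not run. No scaling moved the median of all genes by more than 0.1 on the log2 scale. Depth sets a step of 0.0358 to 0.0398 RPKM per read in a gene of 1 kilobase.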

Other observations

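Several genes whose products act as partners had unlike ratios. These pairs were picked after their values were seen. MUS81 and EME1 form 1 nuclease, and their log2 ratios were 0.12 and -1.24 in U87MG and 0.25 and -0.42 in U251. For BRCA2 and PALB2 they were -0.97 and -0.19 in U87MG and -0.68 and -0.27 in U251. FANCD2 and FANCI had -1.17 and -1.68 in U87MG and -0.73 and -0.998 in U251. FANCL and UBE2T, a ubiquitin ligase and its conjugating enzyme, had -0.93 and -0.49 in U87MG and -0.41 and -0.49 in U251. Within the kinases, the ATR and CHEK1 ratios of -0.53 and -0.99 in U87MG stood beside -0.04 and 0.02 in U251, while the ATM ratios were -0.39 and -0.31 and those of CHEK2 0.27 and 0.36. None of these differences between genes was tested.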
